A study of Mus musculus with 10 samples.

Results

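The genes of MHC class II antigen presentation were followed in the posterior eye wall of young mice. The group held 7 genes, taken by name from the 26360 genes of the deposited table: H2-Aa, H2-Ab1 and H2-Eb1, which encode chains of the class II molecules themselves, Cd74, H2-DMa, H2-DMb1 and Ciita. All 7 were listed, and all 7 were among the 15414 genes that averaged 1 CPM or more (CPM, counts scaled to the library total) and entered the tests. The rule used gene names only.

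Total RNA came from the retinal pigment epithelium (RPE) together with choroid and sclera, per the labels, of 5 wild-type C57BL/6J mice, with a library from the right eye (n = 5) and a library from the left eye (n = 5) of each. Each animal wore a -20 D lens, which induces myopia, over 1 eye for 10 days starting at postnatal day 24, and was 34 postnatal days old at collection. The labels did not say which eye wore the lens, so the groups are right and left eyes, and the sign of a difference between them carries no treatment meaning. The animals are called 61, 64, 65, 66 and 68 after the sample titles, and values are given in that order.

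MHC class II molecules are dimers of an alpha and a beta chain that display peptides from the endocytic pathway to CD4+ T cells. The invariant chain, encoded by Cd74, escorts new dimers to the endosome and blocks their groove, and the DM dimer, encoded by H2-DMa and H2-DMb1, helps to exchange the remaining fragment of it for a peptide. Ciita, the class II transactivator, switches these genes on in dendritic cells and B cells and, after interferon gamma, in macrophages. In the choroid, class II protein is known from dendritic cells and from part of the resident macrophages.

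The libraries held an implied 66.8 to 94.0 M reads (M, mega), and the listed genes made up 42.7% to 47.1% of the CPM total. At this depth 3 reads corresponded to 0.0319 to 0.0449 CPM, and the members were covered by 116 to 4311 implied reads in a library. RPE genes such as Rgr, Ttr and Rpe65 summed to 5041 to 6710 CPM in right eyes and 4857 to 5461 CPM in left eyes, and collagen and proteoglycan genes of scleral fibroblasts to 6037 to 8413 CPM in right eyes and 5765 to 8216 CPM in left eyes. The endothelial list of the choroid summed to 303 to 409 CPM in right eyes and 330 to 357 CPM in left eyes. Rod genes were present too, at 106 to 1568 CPM in right eyes and 175 to 747 CPM in left eyes, as were keratins and other genes of the ocular surface epithelium, at 116 to 675 CPM in right eyes and 280 to 879 CPM in left eyes.

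Among the chain genes, H2-Aa (chromosome 17, 34282744 to 34287823, minus strand, GRCm38) encodes the alpha chain of the I-A molecule. It stood at 20.8, 21.5, 20.7, 11.3 and 11.3 CPM in right eyes and at 22.98, 25.2, 17.5, 12.1 and 11.9 CPM in left eyes. The eyes of animals 66 and 68 were thus low on both sides, and the right and left groups overlapped, with the left eyes of animals 61 and 64 above every right eye. In bulk tissue, fewer cells of a type and less RNA per cell cannot be told apart. H2-Ab1 (chromosome 17, 34257689 to 34269419, plus strand), the beta chain of I-A, stood at 15.5, 18.1, 17.5, 11.1 and 8.65 CPM in right eyes and at 16.6, 20.4, 12.9, 11.8 and 9.81 CPM in left eyes. H2-Eb1 (chromosome 17, 34305867 to 34316674, plus strand), the beta chain of the I-E molecule, stood at 13.7, 15.2, 12.7, 8.49 and 5.92 CPM in right eyes and at 14.6, 19.4, 10.5, 8.89 and 9.11 CPM in left eyes. For both beta chains the highest value was the left eye of animal 64 and the lowest the right eye of animal 68. H2-Ea, the alpha chain partner of H2-Eb1, was not analysed here. RNA of a beta chain alone does not show whether an I-E molecule was made, and this was not tested.

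Cd74 (chromosome 18, 60803848 to 60812652, plus strand), the invariant chain, was the most abundant member. It stood at 47.2, 48.8, 48.6, 22.2 and 24.5 CPM in right eyes and at 47.7, 59.8, 35.9, 30.4 and 25.1 CPM in left eyes. Its right-eye values fell into 3 animals near each other and 2 far lower ones, whereas the left-eye values were spread out between animal 68 and animal 64.

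The genes of the DM peptide exchanger were lower and more even. H2-DMa (chromosome 17, 34119541 to 34139101, plus strand), its alpha chain, stood at 2.33, 2.23, 2.84, 1.56 and 1.89 CPM in right eyes and at 2.33, 2.48, 1.91, 2.44 and 1.88 CPM in left eyes. H2-DMb1 (chromosome 17, 34153072 to 34160230, plus strand), its beta chain, stood at 4.49, 4.59, 5.54, 4.31 and 4.76 CPM in right eyes and at 4.92, 6.39, 4.43, 4.82 and 4.38 CPM in left eyes. For neither gene were animals 66 and 68 low in both eyes relative to all other libraries. The exons of H2-DMa share 360 bases (10.4%) with those of Brd2 on the opposite strand, and Brd2 stood at 65.5 to 83.3 CPM. The sources used here do not give whether counting used strand, so reads of Brd2 could be part of the H2-DMa value. H2-DMb1 has a closely related neighbour, H2-DMb2, listed at a mean of 0.249 CPM, and reads shared by the pair could be split between them.

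Ciita (chromosome 16, 10480059 to 10528418, plus strand), the transactivator, stood at 3.47, 2.73, 2.78, 2.70 and 1.23 CPM in right eyes and at 3.34, 3.60, 2.60, 2.62 and 1.54 CPM in left eyes. Only animal 68 was low in both eyes, and animal 66 lay beside animal 65. Ciita exons share 329 bases (3.45%) with those of Dexi on the opposite strand, which stood at 2.99 to 4.10 CPM.

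**Figure D1:**
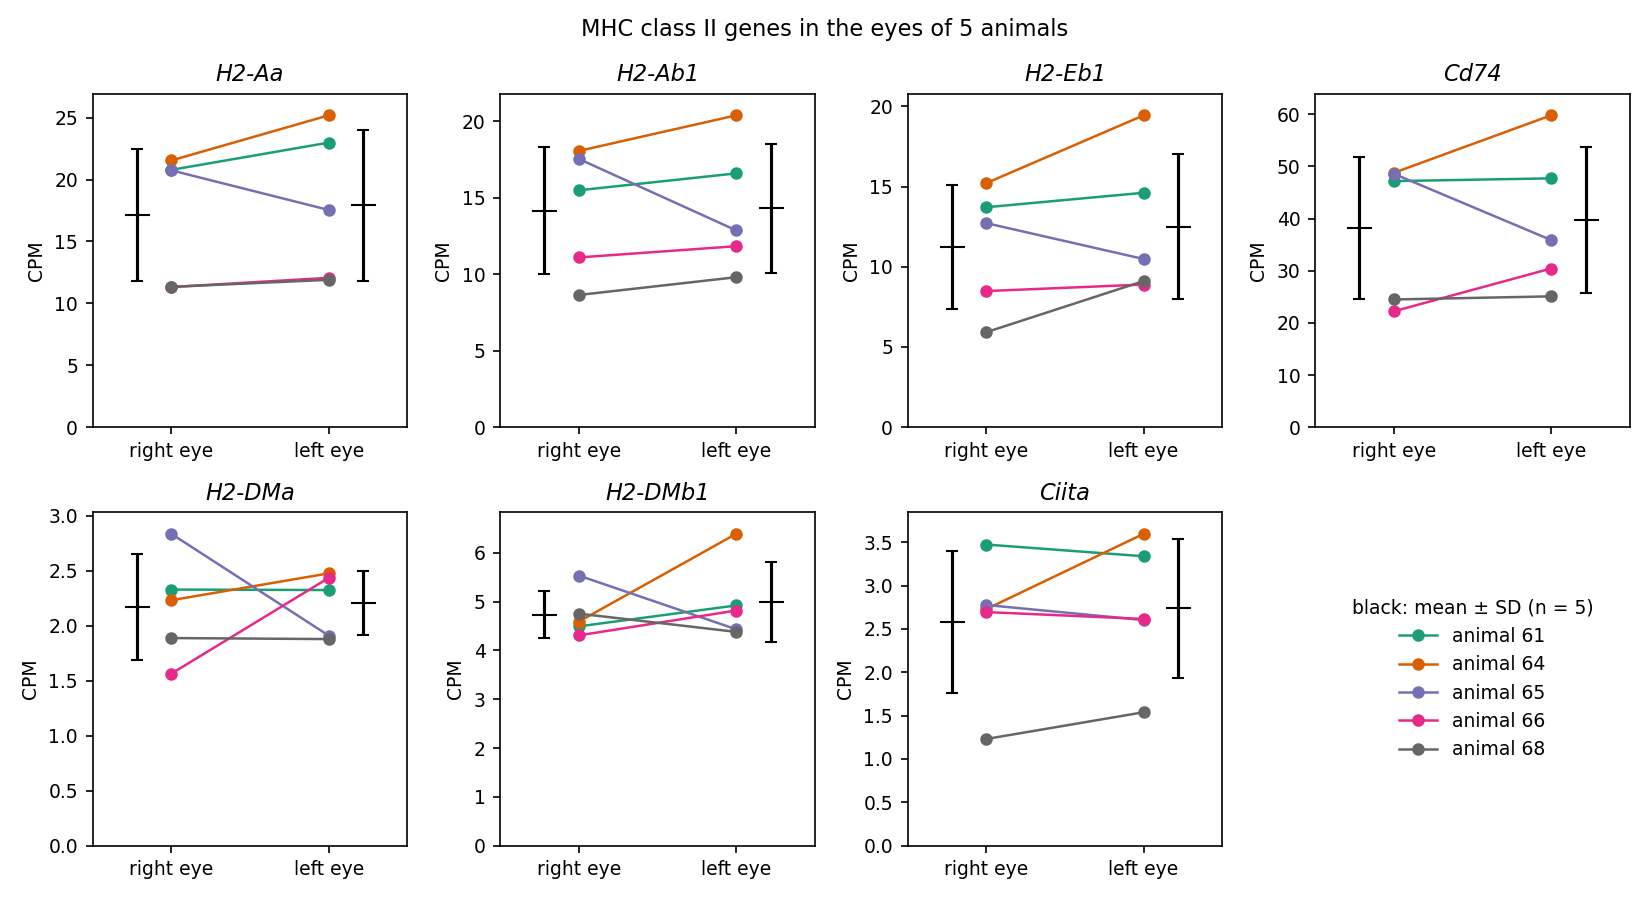
Level of each MHC class II gene in CPM (vertical axis, from 0) in the right and left eye of 5 animals. Each line joins the eyes of 1 animal, and black marks give the mean ± SD of each group (n = 5). Animals 66 and 68 lie at the bottom on both sides for H2-Aa, H2-Ab1, H2-Eb1 and Cd74, and in animal 65 the right eye lies above the left for all 7 genes.

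Per length, with CPM divided by the kilobases (kb) of the exon union of each gene, the level of Cd74 averaged 23.2 ± 7.77 CPM per kb over the 10 libraries (SD). The chain genes followed with mean levels of 6.10 ± 2.07 CPM per kb for H2-Eb1, 5.54 ± 1.53 for H2-Ab1 and 4.62 ± 1.43 for H2-Aa. Neighbouring means in this order differed by less than these SDs, which include the spread between animals. Within a library, H2-Aa was below H2-Ab1 each time, at a ratio of 0.689 to 0.936. The mean level was 2.89 ± 0.383 CPM per kb for H2-DMb1, 0.635 ± 0.108 for H2-DMa and 0.279 ± 0.0807 for Ciita, each below the one before it beyond the SD. The invariant chain transcript was thus above every chain transcript per kb of exon union in these means, and the regulator Ciita was the lowest. The union counts exons of all annotated transcripts, 3.80 kb for H2-Aa and 1.68 kb for Cd74. It can exceed the transcript present by an amount that differs between genes. These levels and the size of the ratios below depend on it, while the fold ranges of the ratios do not.

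Ratios within a library were narrower among the chain genes and Cd74 than those of H2-DMb1 and Ciita to Cd74. The ratio of H2-Aa to H2-Ab1 levels per kb lay between 0.689 and 0.936, a 1.36-fold range, and the lowest values belonged to both eyes of animal 66. The ratio of Cd74 to H2-Aa per kb lay between 4.44 and 5.71, a 1.29-fold range. The ratios of H2-Eb1 to H2-Ab1 and of Cd74 to H2-Ab1 per kb ranged 1.39-fold and 1.52-fold, the second with its lowest value of 3.06 in the right eye of animal 66. The ratio of H2-DMb1 to Cd74 per kb lay between 0.0940 and 0.194, a 2.06-fold range. It was 0.0951, 0.0940, 0.114, 0.194 and 0.194 in right eyes and 0.103, 0.107, 0.123, 0.158 and 0.174 in left eyes, so that in animals 66 and 68 the DM beta chain was higher relative to the invariant chain in both eyes than in any eye of the other 3 animals. The ratio of Ciita to Cd74 per kb ranged 2.41-fold, with its lowest value in the right eye of animal 68 and its highest in the right eye of animal 66.

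**Figure D2:**
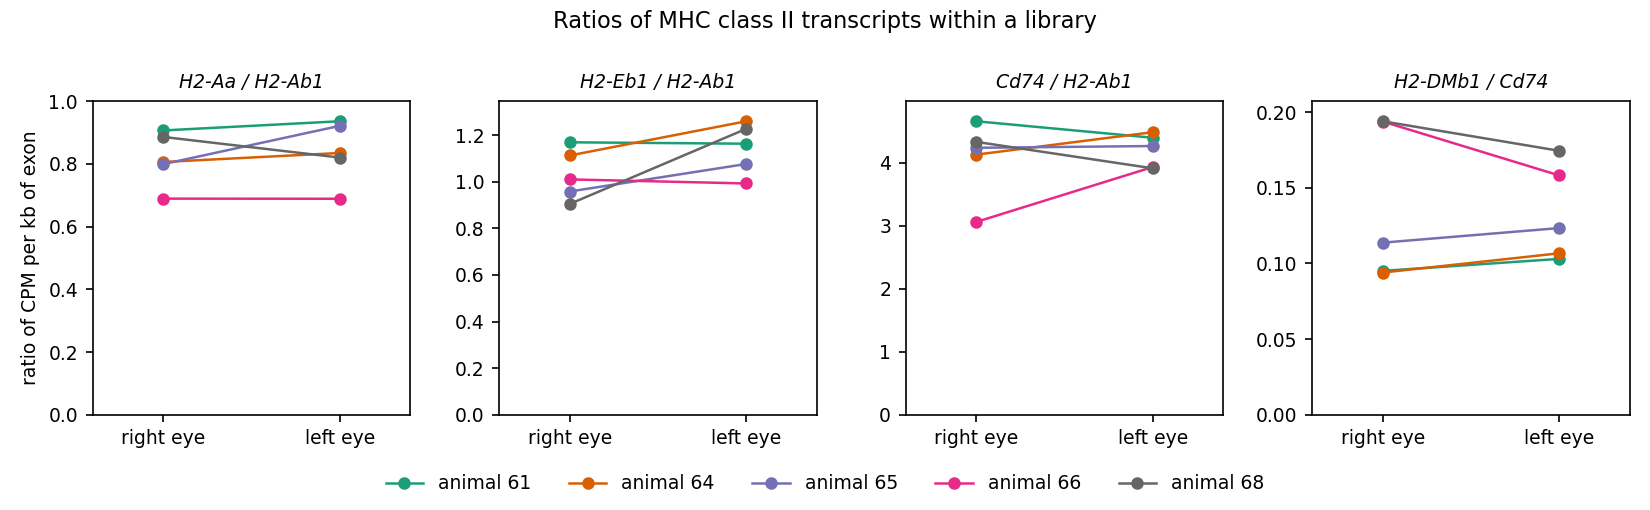
Ratios of the levels per kb of exon between pairs of MHC class II genes within each library (vertical axes, from 0), for the right and left eye of 5 animals, with a line for each animal. The ratio of H2-Aa to H2-Ab1 stayed between 0.689 and 0.936, while the ratio of H2-DMb1 to Cd74 spread 2.06-fold and was highest in animals 66 and 68.

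The promoters of class II genes are known for a shared layout, the X box bound by the RFX complex, next to it a site related to the cyclic AMP element, and the Y box bound by NF-Y, on which Ciita assembles. Windows of 250 bases before to 50 after the transcription start (RefSeq, GRCm38.p6) were held for 4 of the 7 members, H2-Aa, H2-Eb1, H2-DMb1 and H2-DMa. Those of H2-Aa and H2-Eb1, whose levels differed most between animals among the 4, and of the evener H2-DMb1 are shown 5′ to 3′ on the strand of the gene, with matches to the searched letters in capitals.
H2-Aa (chr17:34287774-34288073, minus strand): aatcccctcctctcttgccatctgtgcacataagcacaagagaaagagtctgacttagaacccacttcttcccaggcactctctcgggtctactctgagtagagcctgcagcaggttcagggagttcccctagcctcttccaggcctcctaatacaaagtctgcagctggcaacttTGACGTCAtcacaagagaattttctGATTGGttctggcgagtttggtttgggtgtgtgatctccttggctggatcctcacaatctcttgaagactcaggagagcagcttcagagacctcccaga
H2-Eb1 (chr17:34305617-34305916, plus strand): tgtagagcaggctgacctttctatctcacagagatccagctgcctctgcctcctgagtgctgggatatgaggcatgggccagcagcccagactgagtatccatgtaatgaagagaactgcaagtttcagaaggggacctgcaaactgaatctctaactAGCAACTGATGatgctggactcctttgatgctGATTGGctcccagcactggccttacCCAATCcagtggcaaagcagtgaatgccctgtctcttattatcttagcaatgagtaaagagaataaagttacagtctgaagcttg
H2-DMb1 (chr17:34152941-34153240, plus strand): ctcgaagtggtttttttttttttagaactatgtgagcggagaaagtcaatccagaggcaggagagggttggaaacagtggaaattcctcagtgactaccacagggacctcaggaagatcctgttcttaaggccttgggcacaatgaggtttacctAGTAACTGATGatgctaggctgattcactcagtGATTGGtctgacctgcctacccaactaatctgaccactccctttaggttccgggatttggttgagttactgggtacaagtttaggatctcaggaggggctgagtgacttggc
The letters searched on both strands were AGNNAC followed directly by NNATG for the X box, GATTGG for an extended Y box, which contains the reverse complement of the Y box core CCAAT, and TGACG for the core of the cyclic AMP element. Of all 32851 windows of that length, 3.09% held the X box letters, 16.1% the extended Y box, 37.4% CCAAT and 20.8% TGACG. The X box and the extended Y box stood together in 159 windows (0.484%). H2-Eb1 and H2-DMb1 were among these, with AGCAACTGATG and AGTAACTGATG as X box letters and 21 and 22 bases between the boxes. H2-Eb1 held a further match, as the reverse complement CCAATC, nearer the start. The window of H2-Aa held GATTGG and overlapping matches to TGACG on both strands, and these X box letters were not in it. The 2 windows of H2-DMa (chr17:34122582-34122881 and chr17:34125268-34125567) held no X box letters, and 1 of them held GATTGG. Both lay inside the listed span of the gene, and any start elsewhere in it was not searched. Whether H2-DMa has an X box at another start is therefore not known from these windows. Among the other class II genes with a window, H2-Eb2, H2-Oa and H2-Ob held both boxes and H2-DMb2 held GATTGG without the X box letters. Of the members with both boxes, H2-Eb1 was uneven between animals and H2-DMb1 was among the evener ones. A match is a description of letters and not a measured binding site.

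The first comparison set the right eye of each animal against its left eye, since the labels do not tell the lens-treated eye from the untreated eye. In limma, with animal as a blocking term, 0 of the 7 members passed an adjusted p of 0.05, as did 0% of all 15414 genes. An unadjusted p of 0.05 was likewise passed by 0 of the 7, against 2.79% of all genes (430). All members had an adjusted p of 0.9998 in limma with Benjamini-Hochberg adjustment.

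H2-Aa averaged 17.1 ± 5.32 CPM in right eyes and 17.9 ± 6.11 CPM in left eyes (SD, n = 5 each), and the log2 difference, right minus left, was -0.058 ± 0.075 (SE). Its 95% interval was a fold of 0.851 to 1.09, the narrowest of the members. H2-Eb1 averaged 11.2 ± 3.87 CPM in right eyes and 12.51 ± 4.51 CPM in left eyes, with a log2 difference of -0.17 ± 0.12 (SE) and an interval of 0.732 to 1.084, and it had the smallest unadjusted p of the members (limma, 0.209). Cd74 averaged 38.3 ± 13.6 CPM in right eyes and 39.8 ± 14.0 CPM in left eyes, with a log2 difference of -0.072 ± 0.12. The other members had log2 differences of -0.020 (H2-Ab1), -0.036 (H2-DMa), -0.064 (H2-DMb1) and -0.094 (Ciita), with standard errors of 0.099 to 0.16. The widest interval was that of H2-DMa, a fold of 0.751 to 1.27, so right to left differences within it were not excluded with 5 animals.

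All 7 differences were below 0, with a median of -0.064, while 54% of all genes were below 0 and their median was -0.0079. H2-Aa, H2-Ab1, H2-Eb1 and Cd74 were lower in the right eye in 4 of 5 animals, a count reached or passed in this direction by 21.6% of all genes. In 5 of 5 animals 0 of the 7 members were lower in the right eye, against 2.67% of all genes. The animals differed in direction. In animal 64 all 7 members were lower in the right eye, with a median log2 difference of -0.29, and in animal 65 all 7 were higher in the right eye, with a median of 0.31. The median over all genes in these animals was -0.040 in animal 64 and 0.064 in animal 65. In animal 68 the right eye was lower for H2-Eb1 by a log2 difference of -0.60 and for Ciita by -0.28, while H2-DMb1 differed by 0.11. The 7 genes of the pan-leukocyte list, led by Ptprc (CD45), were also all below 0, with a median of -0.065, and the list summed to 39.5 to 49.0 CPM in right eyes and 38.9 to 52.2 CPM in left eyes. With the mean level of this list as a covariate, the differences of H2-Ab1 (0.038), Cd74 (0.053), H2-DMa (0.11) and H2-DMb1 (0.030) were above 0. Lists of other tissues also lay to one side of 0. The 9 genes of the surface epithelium list and the 5 of the skeletal muscle list were all below 0, with medians of -1.02 and -0.37, and the 6 of the RPE list and the 8 of the choroidal endothelium list were all above 0, with medians of 0.19 and 0.092. None of these genes passed the adjusted threshold, and their part in the class II differences was not tested.

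**Figure D3:**
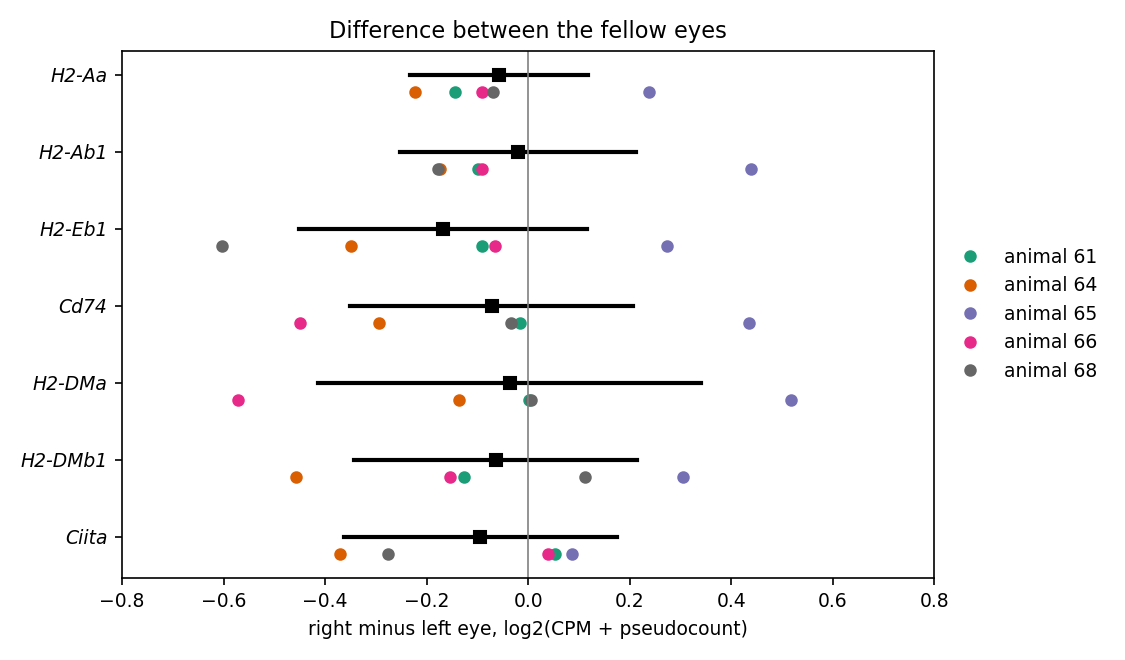
Log2 difference, right minus left eye, on the log2(CPM + 0.230) scale (horizontal axis) for each MHC class II gene. Black squares and bars give limma's estimate and 95% interval, and coloured points the difference in each of the 5 animals. Every interval covers 0, and the points of animal 65 lie above 0 for all 7 genes.

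The second comparison asked whether the members differed between animals beyond the difference between fellow eyes, with limma's F-test of the animal terms. None of the 7 passed an adjusted p of 0.05, against 0.0843% of all genes (13), of which 7 lie on the X or Y chromosome. At an unadjusted p of 0.05, 5 of the 7 passed, against 7.22% of all genes (1113). These were H2-Aa, H2-Ab1, H2-Eb1, Cd74 and Ciita.

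H2-Aa had the smallest p, with F = 33.3, an unadjusted p of 9.33e-05, an adjusted p of 0.0846 in limma and rank 17 of 15414 genes. Its animal means over both eyes were 21.9, 23.4, 19.1, 11.7 and 11.6 CPM. The eyes of animals 65 and 66 did not overlap, whereas animals 66 and 68 and animals 61 and 64 overlapped with each other. Its adjusted p lay between 0.0304 and 0.812 over the alternatives, and H2-Aa passed without both eyes of animal 65 (0.0322) or without its left eye alone (0.0421). Under median-of-ratios scaling (0.0412), quantile normalization (0.0304), library weights (0.0384) and robust moderation (0.0334) it passed as well.

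Cd74 followed with F = 14.7 and an adjusted p of 0.323 in limma. Its animal means were 47.5, 54.3, 42.3, 26.3 and 24.8 CPM, and animals 66 and 68 overlapped. H2-Ab1 (F = 13.7), H2-Eb1 (F = 13.15, rank 88) and Ciita (F = 13.1) each had an adjusted p of 0.344 in limma. H2-Ab1 had means of 16.0, 19.2, 15.2, 11.5 and 9.23 CPM, with no overlap between animals 65 and 66 or between 66 and 68. H2-Eb1 had means of 14.2, 17.3, 11.6, 8.69 and 7.51 CPM. Ciita, with means of 3.41, 3.16, 2.69, 2.66 and 1.39 CPM, had its gap elsewhere, between animals 66 and 68, and the other 4 animals overlapped with their neighbours. Without both eyes of animal 68 its F was 1.66. H2-DMa (F = 0.616, adjusted p = 0.888 in limma) and H2-DMb1 (F = 0.571, adjusted p = 0.893) ranked 11539 and 11956 of 15414 genes, and every neighbouring pair of animals overlapped.

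In fold terms the highest animal mean was 2.30 times the lowest for H2-Eb1, 2.26 for Ciita, 2.17 for Cd74, 2.06 for H2-Ab1 and 1.99 for H2-Aa on the log2 scale with the pseudocount, against 1.22 for H2-DMa and 1.18 for H2-DMb1. The median of the members was 2.06, while over all genes tested the median was 1.21 and the 95th percentile 1.84. The gap between fellow eyes, as the median over animals, was 1.11-fold for the members, with the widest gaps of 1.21-fold for H2-Eb1 and 1.23-fold for Cd74, and 1.10-fold for all genes. Animal 68 had the lowest mean for 6 of the 7 members, against 28% of all genes. On this log2 scale animal 64 had the highest mean for H2-Aa, H2-Ab1, H2-Eb1, Cd74, H2-DMa and H2-DMb1, against 15.7% of all genes. For H2-DMa the CPM mean was highest in animal 65, at 2.37 against 2.35 CPM in animal 64.

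**Figure D4:**
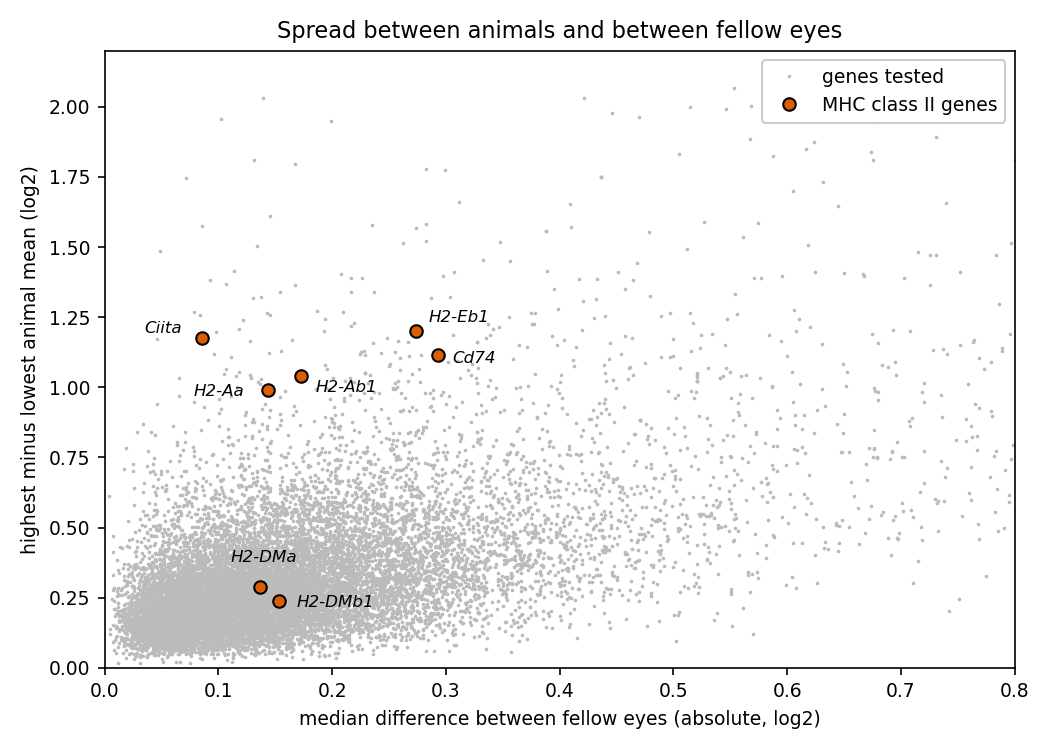
Highest minus lowest animal mean (vertical axis, log2) against the median absolute difference between fellow eyes (horizontal axis, log2) for 14937 of the 15414 genes tested (grey) and the 7 MHC class II genes (orange). The other 477 genes lie beyond the axes. H2-Aa, H2-Ab1, H2-Eb1, Cd74 and Ciita lie high above the bulk of genes, H2-Eb1 and Cd74 at fellow-eye differences of 0.27 and 0.29 against a median of 0.14 over all genes, and H2-DMa and H2-DMb1 lie within it.

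Leukocyte markers stood in a similar animal order. Of the pan-leukocyte list 3 of 7 genes (Ptprc, Cd52 and Cd53) passed the unadjusted threshold, against 7.22% of all genes. None passed the adjusted one. The list summed to 50.3, 49.5, 47.1, 41.6 and 39.2 CPM per animal, a narrower range than that of the 7 members together, at 110, 125, 98.3, 67.4 and 60.99 CPM. With the mean level of that list as a covariate beside the animal block, 1 of the 7 members passed the unadjusted threshold, which was Ciita (F = 5.199), against 5.66% of all genes. H2-Aa then had F = 3.56 and an adjusted p of 0.812 in limma. The list stood in a similar animal order to the members, so this fit cannot separate leukocyte share from other differences between animals. The Y-linked gene Ddx3y was expressed in both eyes of animals 64, 66 and 68 and was near 0 in both eyes of animals 61 and 65. Animal 64 had the highest class II sum and animals 66 and 68 the lowest, and the part of sex in the class II values was not tested. The scleral fibroblast list was highest in animals 66 and 68, with sums of 7407, 6434, 6426, 7835 and 7975 CPM per animal, and the part of that share in the class II values was not tested.

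Markers of the cells that carry class II molecules were set beside this order. Of the 15 macrophage genes tested, 4 passed the unadjusted threshold between animals, against 7.22% of all genes, and none the adjusted one. They were Lyve1, Cx3cr1, Cd163 and F13a1, named because their number is small. The 4 most abundant macrophage genes, Csf1r, Mrc1, C1qa and C1qb, were not among them, and the list summed to 252, 238, 231, 234 and 224 CPM per animal. Cx3cr1, the fractalkine receptor, had animal means of 10.3, 11.7, 9.39, 8.85 and 6.10 CPM and was lowest in animal 68. The other 3 were lowest in animal 65, unlike the class II genes. Lyve1, a hyaluronan receptor, had means of 2.78, 2.85, 1.25, 2.31 and 1.86 CPM. Cd163, a haemoglobin scavenger receptor, had 13.9, 9.05, 5.93, 7.74 and 8.59 CPM, and F13a1, a subunit of coagulation factor XIII, had 14.6, 13.9, 8.58, 12.5 and 10.2 CPM. Of the dendritic cell list 4 of 10 genes reached a mean of 1 CPM and none of them passed. The list summed to 23.9, 22.8, 20.3, 24.7 and 21.2 CPM per animal, mostly from Zbtb46, which endothelium also expresses. Its tested genes differed in animal order. Clec10a was highest in animal 64 (1.28 CPM) and lowest in animal 68 (0.755 CPM), as H2-Aa and Cd74 were. Itgax was lowest in animal 68 but highest in animal 61, and Zbtb46 and Mgl2 were lowest in animal 65. The defining genes Flt3, Xcr1 and Clec9a, named for their role, averaged 0.489, 0.222 and 0.389 CPM, below the level tested. Xcr1 and Clec9a were lowest in animal 68, and Flt3 in animal 65. Of the microglia list 3 genes were tested and none passed, and its sums were 22.98, 22.5, 21.5, 27.0 and 21.7 CPM.

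B cell genes were low. Only Ighm, the heavy chain of IgM, reached 1 CPM, and it passed the unadjusted threshold with animal means of 4.12, 2.34, 3.57, 2.56 and 2.33 CPM, so that animal 64, with the highest class II levels, was among the lowest for Ighm. Ms4a1 (CD20) and Cd79b averaged 0.202 and 0.379 CPM. Of the T cell list only Cd4 was tested, of the mast cell list none, and of monocyte and neutrophil genes 1 of 2 passed. That gene was Ccr2, a chemokine receptor, with animal means of 8.07, 6.18, 3.91, 4.61 and 4.09 CPM. No gene of these lists was at 0 in all libraries. The part of any of these cell types in the class II levels was not tested. The pan-leukocyte covariate does not separate it from other differences between animals.

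Other genes of the class II route were compared between animals as well. Of 19 listed, 13 were tested, and 1 passed the unadjusted threshold, a share near the 7.22% of all genes. It was Ctss, the cathepsin that trims the invariant chain (F = 6.80, adjusted p = 0.546 in limma). Ctss had animal means of 22.4, 20.5, 20.7, 16.2 and 16.1 CPM. Ctsl and Lgmn, further endosomal proteases, had F values of 0.667 and 1.39. Creb1, which binds the cyclic AMP element, had an F of 1.58. The subunits of the X box complex, Rfx5, Rfxap and Rfxank, and those of the Y box complex, Nfya, Nfyb and Nfyc, did not pass. The list's median range between animals was 1.14-fold. None of the 13 passed between right and left eyes, adjusted or unadjusted, and 8 were below 0. H2-Oa and H2-Ob, the DO dimer that restrains DM in B cells, are named for their role and averaged 0.145 and 0.457 CPM, below the level tested.

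Class I genes present peptides from the cytosol and share interferon control with class II. Of 17 tested, 7 passed the unadjusted threshold between animals, against 7.22% of all genes, and none the adjusted one. Their median range between animals was 1.34-fold over the 17. Singled out after its values were seen, Nlrc5, the class I counterpart of Ciita, had F = 29.3 and an adjusted p of 0.102 in limma. Its animal means were 6.83, 4.45, 5.95, 2.82 and 2.99 CPM, so animals 66 and 68 were lowest here as well, but animal 64 lay in the middle. B2m, the class I light chain, had means of 169, 158, 179, 141 and 120 CPM. Of the most abundant genes of the list, the chaperones Canx, Calr and Pdia3 did not pass. Between right and left eyes 1 of the 17 passed unadjusted, against 2.79% of all genes, and none adjusted. It was Psmb8, a subunit of the immunoproteasome, at 3.66 ± 0.762 CPM in right eyes and 4.45 ± 0.330 CPM in left eyes (SD). Of the interferon gamma route 4 of 8 genes passed the unadjusted threshold between animals, against 7.22% of all genes, and none the adjusted one. The 4 were Jak2, Irf1, Gbp2 and Irgm1, named for their small number. The receptor genes Ifngr1 and Ifngr2 did not pass, none of the 8 passed between right and left eyes, and Ifng was not analysed here.

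**Figure D5:**
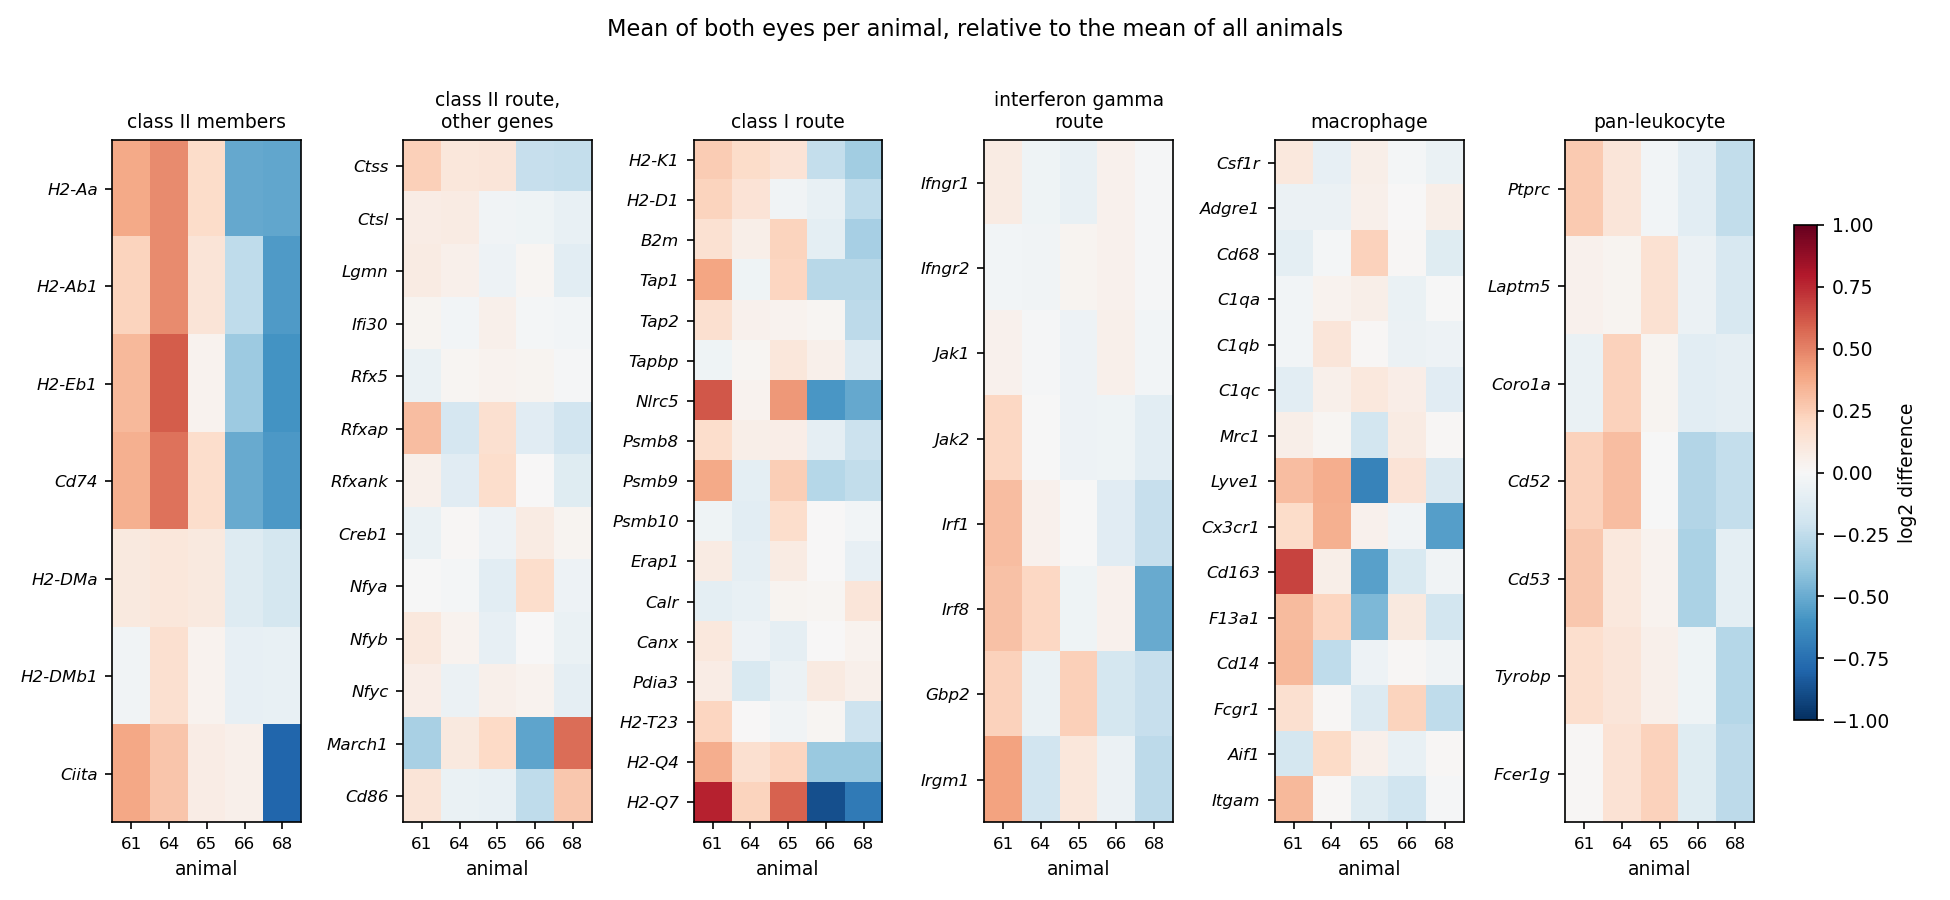
Log2 mean of both eyes in each of 5 animals (columns) relative to the mean of all animals, for the tested genes of 6 lists (rows). Red is higher and blue lower. Animals 66 and 68 are blue for H2-Aa, H2-Ab1, H2-Eb1, Cd74 and Ctss, most genes of the class II route are pale, and animal 64 is red for the class II chains but pale for Nlrc5.

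The members resembled each other to different degrees. Pearson's r of the log2 levels over the 10 libraries, which come from 5 animals and share the eye pairs, was 0.93 to 0.98 for the 6 pairs among H2-Aa, H2-Ab1, H2-Eb1 and Cd74. Ciita had r of 0.74 to 0.84 with these, and the 11 pairs with H2-DMa or H2-DMb1 had r of 0.37 to 0.79. The genes outside the group whose log2 levels were most like the mean standardised profile of the members were Celf1 (r = 0.96), Trappc1 (0.94), Mroh1 (0.93), Axin2 (0.92), Fads6 (0.91) and H2-K1 (0.91), chosen among 15414 genes. Of these, Celf1, an RNA-binding protein, spanned 55.3 to 64.1 CPM in right eyes and 58.1 to 64.6 CPM in left eyes, a far narrower range than any chain gene. H2-K1, a class I heavy chain, stood at 63.0, 54.6, 59.4, 39.0 and 35.4 CPM in right eyes and at 54.4, 57.1, 49.1, 44.2 and 41.9 CPM in left eyes, and was lowest in both eyes of animals 66 and 68 (F = 7.98, adjusted p = 0.510 in limma).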

How the data were processed

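Per the labels' protocols, total RNA was depleted of ribosomal RNA and made into libraries with a stranded kit; they speak of retinae at extraction although the tissue is labelled otherwise. The authors deposited normalized values that behave as CPM plus 0.0001, an offset removed here. Partek, STAR and the build GRCm38 (mm10) stand in the submitters' processing notes. The sources used here do not give versions, annotation release or use of strand. Steps between low values implied the depth, but only 89.1% to 90.1% of low values were whole within a tolerance of 0.05, so whole reads were not recovered and no count test was run. Among 25686 matched genes, 99.4% of starts and of ends (the deposited stop minus 1) equalled GENCODE M21, whose exons gave lengths.

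Values were tested as log2(CPM + 0.230), 0.5 CPM of the listed genes, so changes of low genes are understated. Genes that averaged 1 CPM or more entered limma 3.58.1 (R 4.3.3) with an intensity trend, terms for animal and side, 4 residual degrees of freedom, the 95% interval and Benjamini-Hochberg adjustment at 0.05 over all 15414 genes. The script was tested on simulated data. The animal is a block because fellow eyes come from the same animal. In 2 of 5 animals the fellow eyes' deviations from the group means correlated above 0.1. The correlations were 0.27, 0.11, 0.054, -0.19 and -0.055 in the order of the animals. In 1 of 5 animals the right eye was most like its own left eye. The animal is read from the number in the sample titles. All 45 pairs of libraries differed beyond sampling noise. Floors of 3 reads cover counting error only. Figures used matplotlib 3.10.9 (Python 3.11.15).

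The members and lists were chosen with earlier results of these data known. From the interferon gamma list 1 gene is not reported here. Named genes were the 7 members, up to 4 of the most abundant genes of each other list, genes past the threshold, and the 6 genes most like the members' profile, without predicted loci. Others are said to have been chosen after their values were seen or for a small count. Alternatives covered the block, pseudocount, filter, scaling, library weights, robust moderation, a leukocyte covariate, and each animal or library left out.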

Additional observations from a re-analysis of the deposited data

Results flagged for a closer look

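The left eye of animal 64 held H2-DMb1 at 6.39 CPM, far above the other left eyes, of which the next was at 4.92 CPM. The gap was 0.730 of the range of the 5 left eyes, above Dixon's 95% critical value for 5 values. This was 1 of 14 groups looked at (7 genes in right and left eyes), and chance alone marks about 1 in 20 groups.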

How the results depend on the processing

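Right and left eyes gave 0 calls, over all genes and over the members, in every alternative, including the fit with no replicate block (430 genes at an unadjusted p under 0.05 with the block). No animal test was possible without the block. Between animals, 13 genes passed the adjusted threshold in limma, 20 with library weights, 5 with the pan-leukocyte covariate and 5 to 11 with an animal or a library left out. Of the members 0 passed. H2-Aa alone (1) passed with median-of-ratios scaling (F = 43.95), quantile normalization (44.8), library weights (38.8) or robust moderation (32.9), and 0 to 1 passed with an animal or library left out. The unadjusted count of 5 became 1 with the covariate and 4 to 5 with an animal or library left out. That lower count came without both eyes of animal 68, where Ciita had F = 1.66. The right minus left log2 difference turned positive with the covariate for H2-Ab1 (0.038), Cd74 (0.053), H2-DMa (0.11) and H2-DMb1 (0.030), with quantile normalization for H2-DMa (0.016), without animal 64 (0.018) or 68 (0.020) for H2-Ab1, without animal 66 for Cd74 (0.023) and H2-DMa (0.098), and without animal 64 for H2-DMb1 (0.035). The cause was not tested. Over animals or libraries left out these differences ranged from -0.13 to 0.020 (H2-Ab1), -0.20 to 0.023 (Cd74), -0.17 to 0.098 (H2-DMa) and -0.16 to 0.035 (H2-DMb1). The members' median fellow-eye gap of 0.15 (log2) was 0.14 to 0.23 with an animal left out, and highest without animal 61. With 5 animals and no label of the lens eye, a lens effect was not measured.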
